A study of Mus musculus with 4 samples.

Results

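Plaque-bearing spots of the hypothalamus were compared with hypothalamic spots away from plaques in 2 mouse brain sections, 1 from a 5xFAD mouse and 1 from a 5xFAD-Dp16 mouse. Spots with the deposited region name Hypothalamus were taken. Those marked as plaque were set against those marked neither as plaque nor as a neighbour of a plaque spot, within the same deposited expression cluster and in each section on its own. The comparison held 64 plaque and 133 unmarked spots in 5xFAD and 53 plaque and 335 unmarked spots in 5xFAD-Dp16, which is 585 of the 10549 spots of the series. A further 86 and 99 hypothalamic spots were marked as neighbours of a plaque spot.

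The series holds Visium spatial transcriptomes of 4 hemisphere sections, in which each spot is a small area of tissue that can contain several cells and whose RNA is counted as unique molecular identifiers (UMIs). All 4 mice were male and 9 months old, and the frozen sections were 10 µm thick and lay between 1 and -2 mm of bregma. The genotypes were wild-type C57BL/6J, Dp16, 5xFAD and the cross 5xFAD-Dp16. Dp16 mice carry a duplicated stretch of mouse chromosome 16 and are used as a model of Down syndrome. 5xFAD mice carry human amyloid precursor and presenilin transgenes with familial Alzheimer mutations under the neuronal Thy1 promoter, so the transgenes are expressed by neurons in which that promoter is active. With 1 section per genotype there was no replicate, no p-value was computed, and a difference between the sections cannot be told apart from a difference between mice or section planes.

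The hypothalamus is a set of small nuclei at the base of the forebrain that control feeding, temperature, sleep and hormone release, largely through neurons that secrete peptides. Around amyloid plaques, microglia gather and take on a state that depends on the lipid receptor TREM2 and its signalling partner TYROBP, with high transcripts for cathepsins, complement and the protease inhibitor cystatin F (Cst7). Astrocytes near plaques become reactive and raise Gfap, Serpina3n and complement C4b.

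The label was checked against marker lists. Transcripts of the hypothalamic identity list were 2.15 times as high, as a share of UMIs, in hypothalamic as in all other spots of 5xFAD, 3.31 times in 5xFAD-Dp16, 2.53 times in Dp16 and 5.12 times in wild type. Neuropeptide transcripts were 1.22, 1.33 and 1.32 times as high in 5xFAD, 5xFAD-Dp16 and Dp16 but 4.22 times in wild type. In wild type, Hcrt (orexin) and Pmch (melanin-concentrating hormone), peptides of the lateral hypothalamus, were at 5263 and 11483 UMIs per 1000000 UMIs (CPM). Both were near 0 in Dp16, at 0.458 and 2.06 CPM, and neither had a UMI in the matched plaque spots of 5xFAD. Of the 254 wild-type hypothalamic spots 212 fell in a cluster of their own (cluster 15), while 146 and 150 of the 337 Dp16 spots fell in clusters 4 and 6, so that Dp16 was the nearer plaque-free background. In the 5xFAD, 5xFAD-Dp16 and Dp16 sections the identity list was thus raised and the peptide list hardly. The identity list was much lower in cluster 6, which holds the most plaque spots, than in cluster 4. In cluster 6 of 5xFAD it summed to 1445 CPM in plaque and 1669 in unmarked spots. Cluster 4 of that section had 2844 and 3805, and all other regions 1165. In 5xFAD-Dp16 the same values were 1661 and 1933 in cluster 6, 2416 and 4286 in cluster 4, and 1130 in other regions. Against the label, striatal projection neuron transcripts were 1.58 times and thalamic identity transcripts 1.25 times as high in hypothalamic as in other spots of 5xFAD-Dp16, and thalamic ones 1.22 times in Dp16.

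Plaque marks covered 22.6% of the hypothalamic spots in 5xFAD (exact 95% interval 17.9 to 27.9) and 10.9% in 5xFAD-Dp16 (8.26 to 14.0). Intervals cover counting error only, except those of list medians, which come from the order of a list's members and do not measure counting error. Against 12.6% and 14.0% in all other regions of those sections, the hypothalamus ranked first of 15 regions in 5xFAD and was number 9 in 5xFAD-Dp16. The marks were uneven between clusters. In cluster 4, the larger cluster, 11.2% of spots in 5xFAD and 4.13% in 5xFAD-Dp16 were plaque spots, against 26.9% and 24.3% in cluster 6. Cluster 11 held the highest share, 64% in 5xFAD (42.5 to 82.0) and 34.6% in 5xFAD-Dp16.

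**Figure D1:**
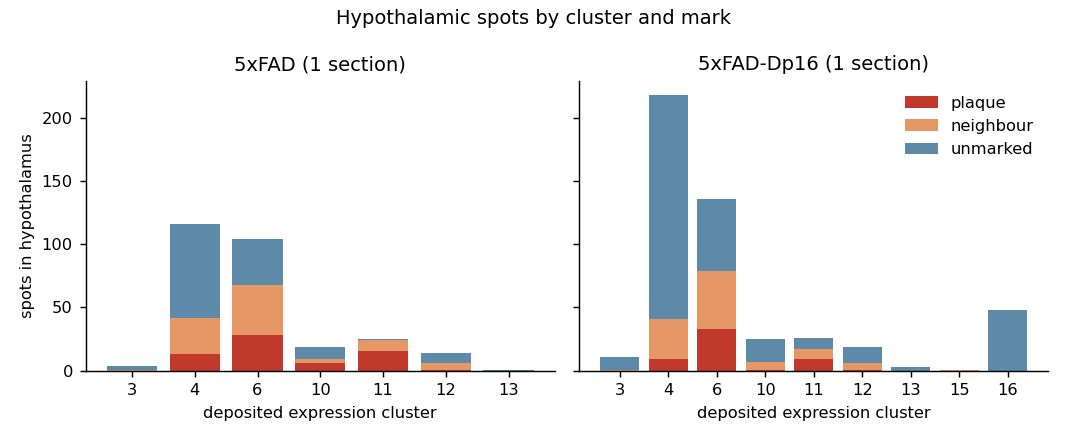
Number of hypothalamic spots (vertical axis) in each deposited expression cluster (horizontal axis) in the 5xFAD and 5xFAD-Dp16 sections, split by plaque, neighbour and unmarked. Clusters 4 and 6 hold most spots in both sections, and cluster 6 holds the most plaque spots, 28 in 5xFAD and 33 in 5xFAD-Dp16.

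Clusters entered the matched comparison where they had at least 3 plaque and 3 unmarked spots. In 5xFAD these were clusters 4 (13 plaque, 74 unmarked), 6 (28 and 36) and 10 (6 and 10), and in 5xFAD-Dp16 clusters 4 (9 and 177), 6 (33 and 57) and 11 (9 and 9). Thus 47 of 64 and 51 of 53 plaque spots were matched. The 16 plaque spots of cluster 11 in 5xFAD met a single unmarked spot and could not be used, so cluster 11, the cluster richest in microglial transcripts, is part of the comparison only in 5xFAD-Dp16. Values for clusters 4 and 6 alone are given where this matters. Depth was similar between marks: the median spot had 11956 UMIs in plaque and 10876 in unmarked spots of 5xFAD, and 11552 and 11912 in 5xFAD-Dp16. The median share of mitochondrial UMIs was 16.8% and 16.2% in 5xFAD, and 17.0% and 15.8% in 5xFAD-Dp16.

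Microglial, complement and lysosomal transcripts and the astrocytic Serpina3n and Gfap were higher at hypothalamic plaques in both sections, while the ratios of most other genes had little in common between them. Genes with at least 10 expected UMIs in the plaque spots of each section are called tested here, which means that their ratio was read, without a p-value. Of these 6167 genes, a matched ratio of at least 1.5 was reached by 399 upwards (6.47%) and 524 downwards (8.5%) in 5xFAD, and by 354 (5.74%) and 513 (8.32%) in 5xFAD-Dp16. In both sections 67 genes were higher (1.09%) and 88 lower (1.43%), while 64 went opposite ways. Counting intervals left out 0 in both sections for 28 of the 67 and 21 of the 88. The direction was the same in clusters 4 and 6 of both sections for 40 of the 67 and 44 of the 88. The 67 are 16.8% of the genes higher in 5xFAD and 18.9% of those higher in 5xFAD-Dp16. They include 18 genes of the microglial, complement, antigen-presentation, chemokine and lysosomal lists, whereas none of the 88 lower genes is in those lists. These lists were drawn up with earlier results of these data in view. The share of their genes among all tested genes is not given here, so these counts are not read as an enrichment. Across genes, which are not independent replicates, the log2 ratios of the 2 sections had a Pearson correlation of 0.11. The counts depend on how many UMIs a gene must have. Among the 2714 genes with at least 30 expected UMIs, 69 were higher (2.54%) and 76 lower (2.8%) in 5xFAD and 34 higher (1.25%) and 88 lower (3.24%) in 5xFAD-Dp16. In both sections 10 of these were higher (0.368%) and 11 lower (0.405%).

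**Figure D2:**
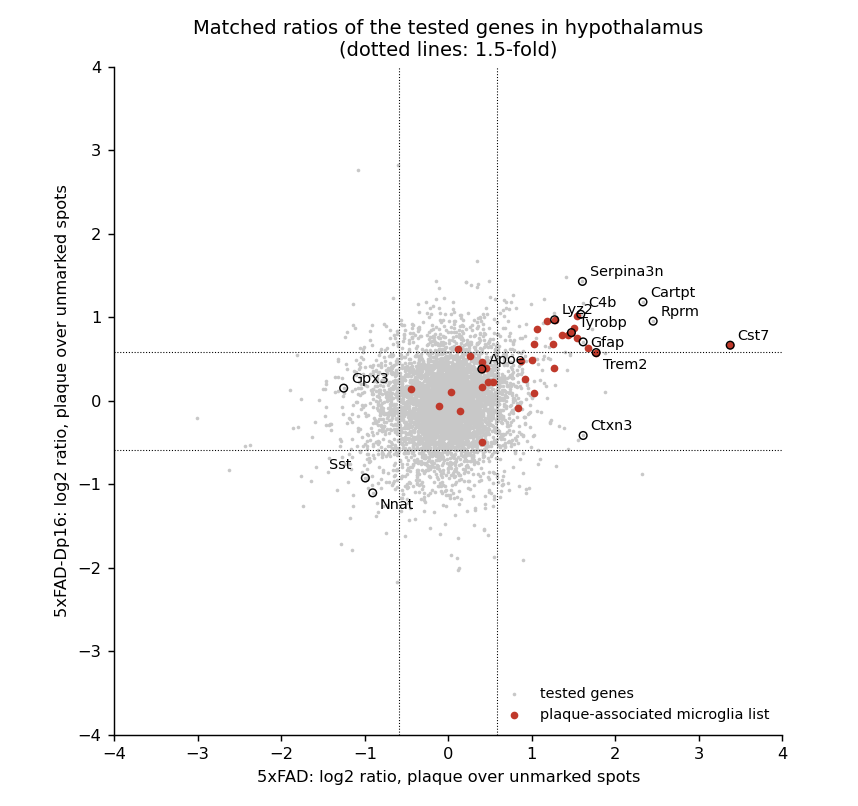
Matched log2 ratio of plaque over unmarked hypothalamic spots in 5xFAD (horizontal) and 5xFAD-Dp16 (vertical) for the tested genes, with plaque-associated microglial genes in red, named genes circled and dotted lines at 1.5-fold; 1 gene, Tac2, lies outside the axes. The bulk forms a round cloud about 0, and red points lie mostly in the upper right part of the plot.

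Cst7, cystatin F, an inhibitor of lysosomal cathepsins that microglia make at plaques, had the highest ratio of the microglial genes in 5xFAD. Its matched level was 176 CPM in plaque and 17.0 in unmarked spots of 5xFAD, a 10.4-fold difference (log2 3.37, interval 3.01 to 4.48). In 5xFAD-Dp16 it was 163 and 103, or 1.59-fold (log2 0.66, 0.30 to 1.16). Wild-type hypothalamus had 3 UMIs of Cst7 in all and Dp16 none. The 2 sections' levels average over different clusters, and cluster 11, which entered in 5xFAD-Dp16 alone, had 666 CPM of Cst7 in plaque and 592 in unmarked spots. With clusters 4 and 6 alone the log2 ratios were 3.60 and 1.69, so that 5xFAD kept the larger ratio. In cluster 4 the plaque level itself was higher in 5xFAD, at 282 CPM against 98.6 in 5xFAD-Dp16. Cst7 had a UMI in 25 of 47 matched plaque spots against 15 of 120 unmarked spots in 5xFAD, and in 24 of 51 against 30 of 243 in 5xFAD-Dp16. One plaque spot of 5xFAD held 28 of its 98 UMIs, and without the 3 plaque spots of that section that carry no mark in the neighbour column the log2 ratio was 2.68.

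Trem2, the lipid-sensing receptor, was at 141 CPM in plaque and 41.3 in unmarked spots of 5xFAD (log2 1.77, interval 1.37 to 2.45) and at 177 and 119 in 5xFAD-Dp16 (0.58, 0.20 to 0.98). Tyrobp, the adaptor through which TREM2 signals, was at 509 and 183 (1.47, 1.3 to 1.82) and at 697 and 396 (0.82, 0.64 to 1.04). Dp16 had 20.8 CPM for Trem2 and 85.6 for Tyrobp, below the unmarked spots of both plaque-bearing sections. Unless a cluster is named, Dp16 levels here and below are over all its hypothalamic spots and were not matched on cluster. Cluster 11, which enters the levels of 5xFAD-Dp16, has no hypothalamic spot in Dp16. With clusters 4 and 6 alone Trem2 gave 2.02 and 1.02 and Tyrobp 1.53 and 1.11. Trem2 and Tyrobp were the only 2 of 11 members of the Trem2 pathway list with enough UMIs to be tested, and the other 9, among them the kinase Syk and the transcription factor Spi1, are not read here.

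The plaque-associated microglia list, drawn up with earlier results of these data in view, lay mostly above 0. Of its 49 genes 33 were tested, and the median log2 ratio was 1.01 in 5xFAD (interval 0.45 to 1.27) and 0.49 in 5xFAD-Dp16 (0.26 to 0.67), against -0.0034 and -0.032 for all tested genes. In 5xFAD 20 of the 33 were at least 1.5-fold higher, in 5xFAD-Dp16 14, in both 13, and none was that much lower in either section. The median was above 0 in each matched cluster: 1.46 and 0.78 in cluster 4, 0.59 and 0.36 in cluster 6, 0.48 in cluster 10 of 5xFAD and 0.50 in cluster 11 of 5xFAD-Dp16. The summed level of the list differed less, with log2 ratios of 0.34 and 0.10, because Fth1, the iron-storage ferritin heavy chain, and Apoe supply most of the sum. Fth1 gave 0.14 and -0.12, and Apoe, the main lipid carrier of glia, 0.40 and 0.38. In bulk spots, more microglia and more transcript per microglial cell cannot be told apart.

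Among the genes highest in both sections, Cd68, a lysosomal membrane protein of phagocytes, was at 44.9 CPM in plaque and 15.4 in unmarked spots of 5xFAD (log2 1.54), and at 46.9 and 23.2 in 5xFAD-Dp16 (1.02). Lyz2, lysozyme, gave 71.2 against 29.5 (1.27) and 139 against 71.1 (0.97). Fcer1g, the signalling chain of activating Fc receptors, gave 106 against 47 (1.18) and 239 against 124 (0.95). Levels in Dp16, not matched on cluster, were below the unmarked level of both plaque-bearing sections for all 3 genes, at 6.18, 21.5 and 42.6 CPM. Lgals3bp, which binds galectin-3, had log2 ratios of 1.5 and 0.87, and Vsir, an immune checkpoint protein of myeloid cells, 0.93 and 0.92. Of 5 tested chemokine and Fc receptor genes 4 were at least 1.5-fold higher in each section, and the chemokine Ccl6 gave 1.67 and 0.63 and the surface glycoprotein Cd52 1.43 and 0.79.

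Genes of resting microglia were too sparse for a firm reading. Of 18 homeostatic genes 8 were tested, with medians of 0.66 and 0.30, and 7 of the 8 were above 0 in both sections, although 1 gene passed 1.5-fold in both. By cluster, the 5xFAD medians were 1.19 in cluster 4, -0.05 in cluster 6 and 0.07 in cluster 10. In 5xFAD-Dp16 they were 0.59 in cluster 4, 0.19 in cluster 6 and 0.48 in cluster 11. Fcrls, an Fc receptor-like molecule of microglia, gave 1.28 and 0.19. The purinergic receptor P2ry12, the membrane protein Tmem119 and the fractalkine receptor Cx3cr1 had 9 to 24 UMIs in the plaque spots of a section and were not tested. Itgax, an integrin of activated microglia, had 2 UMIs in plaque spots of 5xFAD and 8 in those of 5xFAD-Dp16. Border macrophage genes were nearly absent, with none of 9 tested and a summed level of 11.4 CPM in plaque against 4.56 in unmarked spots of 5xFAD, 12.4 against 7.46 in 5xFAD-Dp16, and 13.3 in Dp16.

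**Figure D3:**
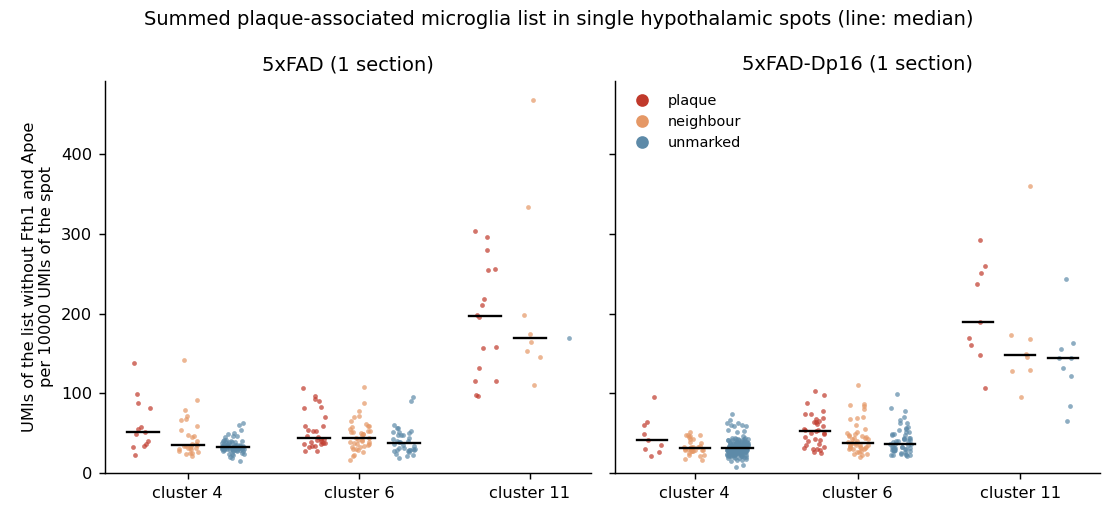
UMIs of the plaque-associated microglia list without Fth1 and Apoe per 10000 UMIs (vertical axis) in single hypothalamic spots of clusters 4, 6 and 11, by plaque mark and section, with lines at the medians. Plaque medians lie above unmarked medians in clusters 4 and 6 of both sections with wide overlap between spots, and all cluster 11 spots lie high.

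Single spots overlapped widely. The ranges given first are over all hypothalamic spots and were not matched on cluster. Cluster 11 held 16 of 64 plaque and 1 of 133 unmarked spots in 5xFAD, and 9 of 53 and 9 of 335 in 5xFAD-Dp16. Without Fth1 and Apoe, the plaque-associated microglia list took from 22.5 through a median of 54.6 to 303 of 10000 UMIs in plaque spots of 5xFAD, and from 14.8 through 34.2 to 169 in unmarked spots. In 5xFAD-Dp16 the plaque spots ran from 21.6 through 59.2 to 292 and the unmarked spots from 7.82 through 32.7 to 243. Dp16 and wild-type spots had medians of 29.3 and 28.8 and reached at most 79.2 and 59.2. Thus unmarked spots sat near the plaque-free sections at the median but had a tail beyond them, of which the far part lay outside clusters 4 and 6. In 5xFAD-Dp16 the highest unmarked spot was in cluster 11, a cluster with no hypothalamic spot in Dp16 or wild type. Unmarked spots of cluster 6 reached 94.7 in 5xFAD and 99.6 in 5xFAD-Dp16, against 79.2 in Dp16. In cluster 4 they reached 62.1 and 74.3, against 49.0 in Dp16. Within cluster 4 the plaque and unmarked medians were 51.9 and 33.0 in 5xFAD and 41.2 and 31.0 in 5xFAD-Dp16. Within cluster 6 they lay at 44.1 and 37.3 in 5xFAD and at 52.1 and 36.2 in 5xFAD-Dp16. In 5xFAD-Dp16 the 9 plaque spots of cluster 11 had a median of 189, its neighbours 147 and its unmarked spots 144. In 5xFAD the plaque spots of cluster 11, which could not be matched, had a median of 197.

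Complement genes were higher as well. The C1q subunits, which start the classical cascade, were read from C1qa and C1qb: C1qa was at 325 CPM in plaque and 118 in unmarked spots of 5xFAD (log2 1.46, interval 1.23 to 1.88) and at 404 and 277 in 5xFAD-Dp16 (0.54, 0.30 to 0.81). C1qb gave 0.83 and 0.32. C4b, the next component and largely of glial origin, was at 72.2 and 24.1 (1.59, 0.94 to 2.40) and at 48.0 and 23.4 (1.03, 0.19 to 1.73). Clu, the inhibitor clusterin, differed little, at 0.24 and 0.29. All 5 tested complement genes were above 0 in both sections, with medians of 1.19 and 0.51, but only C4b passed 1.5-fold in both. C4b rested on 42 and 33 UMIs, and averaging over spots instead of over UMIs brought it to 0.93 and 0.38.

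Of 4 tested class I antigen-presentation genes, 2 were at least 1.5-fold higher in each section, 1 of them in both, and 1 was lower in 5xFAD-Dp16. B2m, the shared light chain of class I molecules, was at 347 CPM against 173 (1.01) in 5xFAD and at 542 against 386 (0.49) in 5xFAD-Dp16. The heavy chains H2-D1 and H2-K1 gave 0.60 and 0.31 in 5xFAD and 0.59 and 0.96 in 5xFAD-Dp16. Tapbp, tapasin, which helps load peptides onto class I molecules, gave 0.13 in 5xFAD and -1.08 in 5xFAD-Dp16, the latter from 9 plaque UMIs. No class II gene reached the count needed, and the 7 members summed to 116 against 23.6 CPM in 5xFAD and 53.9 against 46.4 in 5xFAD-Dp16. The 5 tested interferon-stimulated genes had medians of 0.75 and 0.01.

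The lysosome list was higher through part of its members. Of 27 tested genes 9 were at least 1.5-fold higher in 5xFAD and 7 in 5xFAD-Dp16, 5 in both, and 2 were that much lower in 5xFAD, with medians of 0.40 and 0.23. Among all tested genes 6.47% and 5.74% were that much higher, and 8.5% lower in 5xFAD. Ctsd, the aspartyl protease cathepsin D, was at 966 CPM in plaque and 475 in unmarked spots of 5xFAD (1.02, interval 0.90 to 1.24) and at 1293 and 810 in 5xFAD-Dp16 (0.67, 0.54 to 0.83), against 291 in Dp16. Ctsb, cathepsin B, differed less, at 0.40 and 0.17. The vacuolar proton pump, which acidifies lysosomes and synaptic vesicles, had medians of 0.01 and -0.00 over 17 tested subunits and none past 1.5-fold. The lipid carrier and lipid handling list had medians of 0.21 and 0.29 over 9 genes.

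Reactive astrocyte genes were higher in both sections, while the general astrocyte list had medians near 0 and a slightly higher summed level. Serpina3n, a secreted protease inhibitor, was at 151 CPM in plaque and 49.5 in unmarked spots of 5xFAD (log2 1.61, interval 1.24 to 2.25), and 127 and 47.1 in 5xFAD-Dp16 (1.43, 1.01 to 2.12). It had a UMI in 31 of 47 plaque against 44 of 120 unmarked spots in 5xFAD, and in 32 of 51 against 56 of 243 in 5xFAD-Dp16. Gfap, the intermediate filament of astrocytes, was at 194 and 63.5 (1.61, 1.23 to 2.08) and at 153 and 94.1 (0.70, 0.29 to 1.13). Its value in 5xFAD-Dp16 rests on how spots are weighted, since the mean over spots in place of pooled UMIs gave 0.04. By cluster and mark, Gfap in cluster 4 was at 258 CPM in plaque, 150 in neighbour and 68.4 in unmarked spots of 5xFAD, and at 59.2, 32.2 and 25.4 in 5xFAD-Dp16, where the plaque value rests on 6 UMIs. In cluster 6 it was at 134, 112 and 60.9 in 5xFAD and at 130, 68.1 and 88.5 in 5xFAD-Dp16.

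Across the reactive astrocyte list 10 of 25 genes were tested, 9 of them above 0 in both sections, with medians of 0.48 and 0.40 and 4 past 1.5-fold in both. Metallothionein Mt1 gave 0.47 and 0.34, while Vim, another intermediate filament, gave 0.48 and -0.40. The astrocyte list had medians of 0.01 and 0.10 over 17 genes. The summed level of that list gave log2 ratios of 0.13 (interval 0.07 to 0.20) and 0.14 (0.07 to 0.21). Aqp4, the water channel of astrocyte endfeet, gave -0.02 and 0.50. Chil1, a chitinase-like protein, gave 1.15 and 1.22 but -0.56 in cluster 11 of 5xFAD-Dp16.

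**Figure D4:**
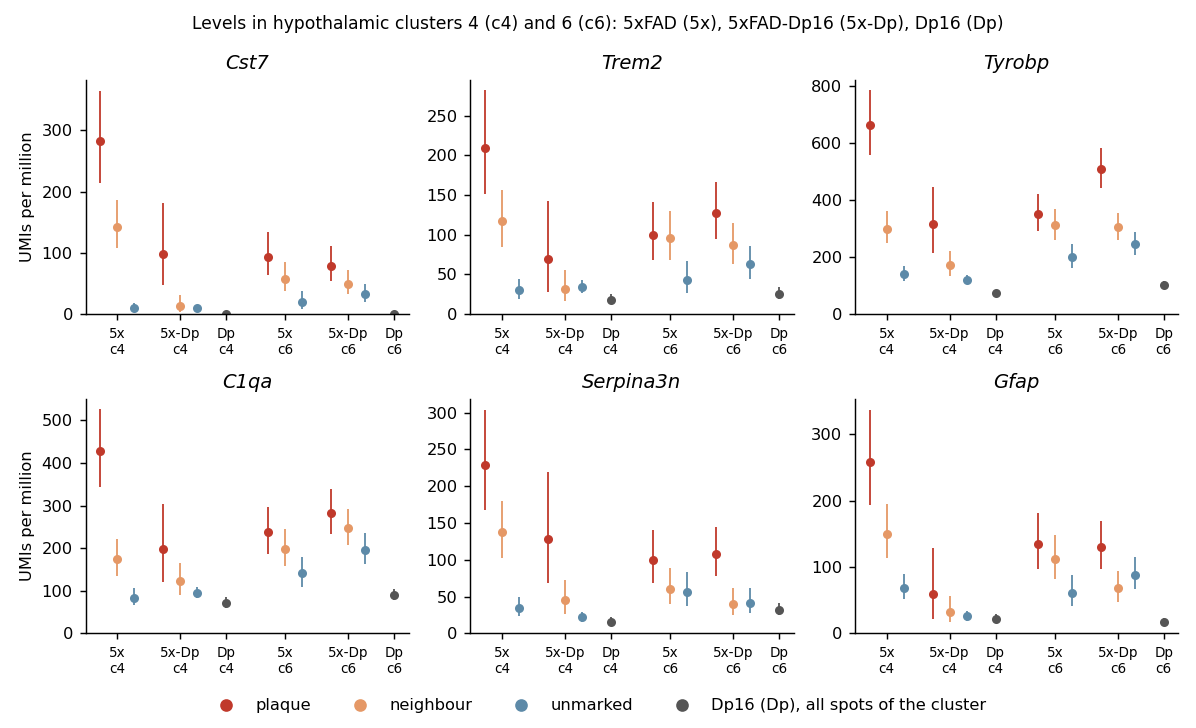
Level in UMIs per 1000000 UMIs (vertical axis) of Cst7, Trem2, Tyrobp, C1qa, Serpina3n and Gfap in clusters 4 and 6, for plaque, neighbour and unmarked spots of 5xFAD and 5xFAD-Dp16 and for all Dp16 spots of the cluster; bars are exact 95% Poisson intervals. In cluster 4 Cst7 runs from 282 through 143 to 9.61 in 5xFAD and from 98.6 through 13.4 to 10.1 in 5xFAD-Dp16.

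Within single clusters the ordering by mark was clearest in cluster 4. Tyrobp there was at 666 CPM in plaque, 301 in neighbour and 140 in unmarked spots of 5xFAD and at 316, 174 and 121 in 5xFAD-Dp16, with 73.0 in Dp16. In cluster 6 the ratio of plaque to unmarked spots was smaller in both sections: 353, 312 and 200 in 5xFAD, 511, 305 and 246 in 5xFAD-Dp16, and 103 in Dp16. Trem2 in cluster 6 was at 99.8, 95.3 and 43.5 in 5xFAD and at 127, 86.5 and 62.8 in 5xFAD-Dp16. Neighbours in 5xFAD thus lay near plaque spots for Trem2 in that cluster, and nearer to the unmarked spots in 5xFAD-Dp16. Neighbour spots matched to unmarked spots in the same way gave microglial list medians of 0.43 and 0.14. Of the 6167 genes, 232 were at least 1.5-fold higher (3.76%) and 297 lower (4.82%) in neighbours of 5xFAD, and 95 higher (1.54%) and 270 lower (4.38%) in those of 5xFAD-Dp16. In both sections 15 were higher (0.243%) and 35 lower (0.568%), and 5 of the 67 genes higher at plaques were among them.

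Shares of spots with a UMI at equal depth, each spot thinned to 4470 UMIs, gave the same order. These shares cover all hypothalamic spots and were not matched on cluster. Cluster 11 held 16 of 64 plaque and 1 of 133 unmarked spots in 5xFAD, and 9 of 53 and 9 of 335 in 5xFAD-Dp16. Cst7 was seen in 46.9% of plaque (exact interval 34.3 to 59.8), 25.3% of neighbour and 5.51% of unmarked spots in 5xFAD (2.24 to 11), and in 32.7%, 13.1% and 7.19% in 5xFAD-Dp16. Serpina3n was seen in 51.6%, 22.9% and 21.3%, and in 46.2%, 22.2% and 12.7%. Serpina3n in neighbours thus sat near the unmarked share in 5xFAD, although the matched log2 ratio of neighbour over unmarked UMIs was 1.32 there and 0.44 in 5xFAD-Dp16. Cst7 was seen in 0.82% of wild-type spots and in 0 of 319 Dp16 spots, which allows a share of spots with a UMI of up to 0.94%, and Gfap in 15.2% of wild-type spots. Unthinned, Cst7 was seen in 64.1%, 37.2% and 12.8% of all plaque, neighbour and unmarked spots in 5xFAD and in 47.2%, 24.2% and 10.4% in 5xFAD-Dp16. Spots shallower than 4470 UMIs were left out, 9 in 5xFAD and 30 in 5xFAD-Dp16.

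Promoter sequences from RefSeq (GRCm38.p6) are shown for the 3 genes higher in both sections whose window holds 1 of 3 searched motifs. The motifs were GAGGAAGT, the ETS form bound by the myeloid factor PU.1, TCACGTGA, the E-box of lysosomal genes, and TTCCNGGAA, the STAT form, searched on both strands in windows from 250 bases before to 50 after the start; no 2 of them overlap in the windows shown. Capitals mark the match in the 270 bases printed, read 5′ to 3′ on the gene's strand. Gfap lies at chr11:102897181-102897450, minus strand, Ctsd at chr7:142387808-142388077, minus strand, and Ctss, the microglial protease cathepsin S, at chr3:95526536-95526805, plus strand.
Gfap: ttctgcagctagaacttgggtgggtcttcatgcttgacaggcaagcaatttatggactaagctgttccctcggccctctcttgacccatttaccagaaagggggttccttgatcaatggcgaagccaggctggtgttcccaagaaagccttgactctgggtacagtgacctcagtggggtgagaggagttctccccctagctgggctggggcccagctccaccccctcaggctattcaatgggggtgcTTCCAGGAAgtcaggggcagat
Ctsd: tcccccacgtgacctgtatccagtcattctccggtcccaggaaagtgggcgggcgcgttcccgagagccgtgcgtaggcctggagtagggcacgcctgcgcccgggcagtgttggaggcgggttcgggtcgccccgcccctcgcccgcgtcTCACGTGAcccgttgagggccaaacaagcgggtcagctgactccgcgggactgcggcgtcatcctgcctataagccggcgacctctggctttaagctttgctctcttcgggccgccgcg
Ctss: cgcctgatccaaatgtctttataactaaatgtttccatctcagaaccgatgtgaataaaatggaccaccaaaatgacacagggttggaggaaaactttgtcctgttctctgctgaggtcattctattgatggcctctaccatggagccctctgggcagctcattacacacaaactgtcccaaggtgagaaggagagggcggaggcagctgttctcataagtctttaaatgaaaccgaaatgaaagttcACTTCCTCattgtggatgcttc
The Ctss match is the reverse complement of the ETS letters. Ctss, named for this motif after its values were seen, was at 191 CPM against 124 in 5xFAD (log2 0.62) and at 408 against 239 in 5xFAD-Dp16 (0.77). Each motif was in 1 of the 67 windows of the 53 matched genes higher in both sections, or 1.49%, against 2.41%, 2.29% and 1.13% of the 6547 windows of tested genes and 3.20%, 0.974% and 1.15% of all 32851 windows.

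Hypothalamic identity genes mostly had ratios below 0 at plaques. Of 9 tested, none was above 0 in both sections and 6 were below 0 in both, with medians of -0.38 and -0.66. In 5xFAD 3 were at least 1.5-fold lower and in 5xFAD-Dp16 5, with 2 in both, and 1 was that much higher in 5xFAD-Dp16. Among all tested genes 8.5% and 8.32% were that much lower. In all other regions the same list had medians of -0.35 and -0.42, so ratios below 0 were not restricted to the hypothalamus. Nnat, neuronatin, a membrane proteolipid of neuroendocrine neurons, was at 199 CPM in plaque and 373 in unmarked spots of 5xFAD (log2 -0.91, interval -1.20 to -0.60) and at 230 and 493 in 5xFAD-Dp16 (-1.10, -1.40 to -0.83). It was lower in cluster 4 (-1.05 and -0.89) and in cluster 6 (-1.04 and -1.69), and Dp16 had 477. Neighbours of plaque spots had log2 ratios of Nnat of -0.15 and -0.35 against unmarked spots. Baiap3, which acts in dense-core vesicle traffic, gave -0.86 and -1.23, and Resp18, an endocrine secretory protein, -0.33 and -0.18, whereas Dlk1, a Notch-related surface protein, gave -0.19 and 1.13. Per spot, hypothalamic identity transcripts in cluster 4 had medians of 29.2 of 10000 UMIs in plaque, 33.7 in neighbour and 37.3 in unmarked spots of 5xFAD, and 18, 33.4 and 40.3 in 5xFAD-Dp16. In cluster 6, which holds the most plaque spots, they were 11.9, 15.1 and 16.5 in 5xFAD and 16.0, 17.3 and 16.4 in 5xFAD-Dp16, so the per-spot medians of the latter hardly differed there.

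Peptide and interneuron genes differed between the 2 main clusters. Sst, somatostatin, was lower in cluster 4 (-4.33 and -2.44) but not in cluster 6 (0.67 and -0.15), which gave -0.99 and -0.93 in all. Of the 43 Sst UMIs in plaque spots of 5xFAD, 24 came from 1 spot. Cartpt, the feeding peptide CART, ran the other way, with 2.56 and 1.95 in cluster 4, -1.48 and -0.62 in cluster 6, and 2.33 and 1.18 in all. Rprm, a cell-cycle arrest gene, did likewise, with 2.99 and 1.94 in cluster 4 and -1.06 and -1.62 in cluster 6, and had a UMI in 10 of 47 and 9 of 51 plaque spots. Pvalb, the calcium buffer of fast-spiking neurons, was at 593 CPM in plaque against 91.3 in unmarked spots of cluster 4 in 5xFAD and at 345 against 56.5 in 5xFAD-Dp16, but in cluster 6 at 736 against 767 and at 585 against 737. Calb2, calretinin, was at 258 against 736 and at 414 against 635 in cluster 4. The part that position within cluster 4 has in these values was not tested.

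Across the neuropeptide list the medians were -0.07 and 0.05 over 14 tested genes, with 1 gene higher and 2 lower past 1.5-fold in both sections. Scg2, secretogranin of dense-core vesicles, gave -0.59 and -0.56, and the enkephalin precursor Penk 0.62 and 0.22. Tac2, neurokinin B, was at opposite ends: 3 UMIs in plaque against 418 in unmarked spots of 5xFAD, where 24 of 120 unmarked spots held it, and 50 against 39 in 5xFAD-Dp16, where 1 plaque spot held 28. The inhibitory neuron list had medians of 0.11 and 0.18 over 10 genes, the thalamic list 0.17 and 0.50 over 5 and the striatal list 0.13 and 0.22 over 5. The summed thalamic level went the other way, with log2 ratios of -0.48 (interval -0.66 to -0.28) and -0.17 (-0.39 to 0.03). For the striatal sum they were -0.21 (-0.45 to 0.04) and 0.07 (-0.15 to 0.29). Slc32a1, the vesicular GABA transporter, gave 0.49 and 0.71, and Slc17a6, a glutamate transporter of subcortical neurons, -0.35 and -0.11.

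Synaptic genes were near 0, with medians of -0.07 and 0.05 over 28 genes and 1 past 1.5-fold in each direction in both sections. Gria1, an AMPA receptor subunit, gave -0.96 and -0.92 and was the lowest of them. Snap25, a vesicle fusion protein, gave 0.39 and 0.24. Thy1, whose promoter drives the transgenes in 5xFAD mice, was at 1447 CPM in plaque and 1042 in unmarked spots of 5xFAD (0.47) and at 944 and 699 in 5xFAD-Dp16 (0.43), against 503 in Dp16. App, the mouse precursor gene as annotated, gave -0.08 and -0.04, and the amyloid precursor and processing list had medians of 0.02 and 0.01 over 14 genes. The oxidative phosphorylation list had medians of 0.06 and -0.04 over 38 genes, none past 1.5-fold.

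Over the matched clusters together, myelin genes were close to 0 or slightly lower, with medians of -0.07 and -0.18 over 24 genes. Of these, 11 were below 0 and 1 above 0 in both sections. The clusters differed, with medians of -0.19 and 0.40 in cluster 4 and of 0.07 and -0.37 in cluster 6. The summed level of the list gave log2 ratios of 0.05 (interval 0.01 to 0.09) and -0.09 (-0.14 to -0.05). Mbp, myelin basic protein, gave 0.11 and 0.09, and Tspan2, a tetraspanin of oligodendrocytes, -0.62 and -0.61. The oligodendrocyte genes reported near plaques, a list that shares Serpina3n and C4b with other lists here, had medians of 0.35 and 0.39 over 13 genes. Of these, 5 were at least 1.5-fold higher and 1 lower in 5xFAD, 4 higher and 2 lower in 5xFAD-Dp16, and 3 higher and 1 lower in both. Among all tested genes 6.47% were that much higher and 8.5% lower in 5xFAD, and 5.74% and 8.32% in 5xFAD-Dp16. Cholesterol synthesis genes were lower in 5xFAD, with a median of -0.61 over 17 genes and 9 past 1.5-fold, against 8.5% of all tested genes. In 5xFAD-Dp16 the median was -0.21 with an interval of -0.40 to 0.17, and 2 of 17 were lower, near the background of 8.32%. By cluster, the 5xFAD medians were -0.67 in cluster 4, -0.20 in cluster 6 and -1.28 in cluster 10, which was matched in that section alone. In 5xFAD-Dp16 they were -0.49 in cluster 4, -0.06 in cluster 6 and -0.01 in cluster 11. Hmgcs1, an early enzyme of the pathway, gave -0.78 and -0.21, and Fdps, farnesyl diphosphate synthase, -0.93 and 0.31. The difference between the sections was not tested.

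**Figure D5:**
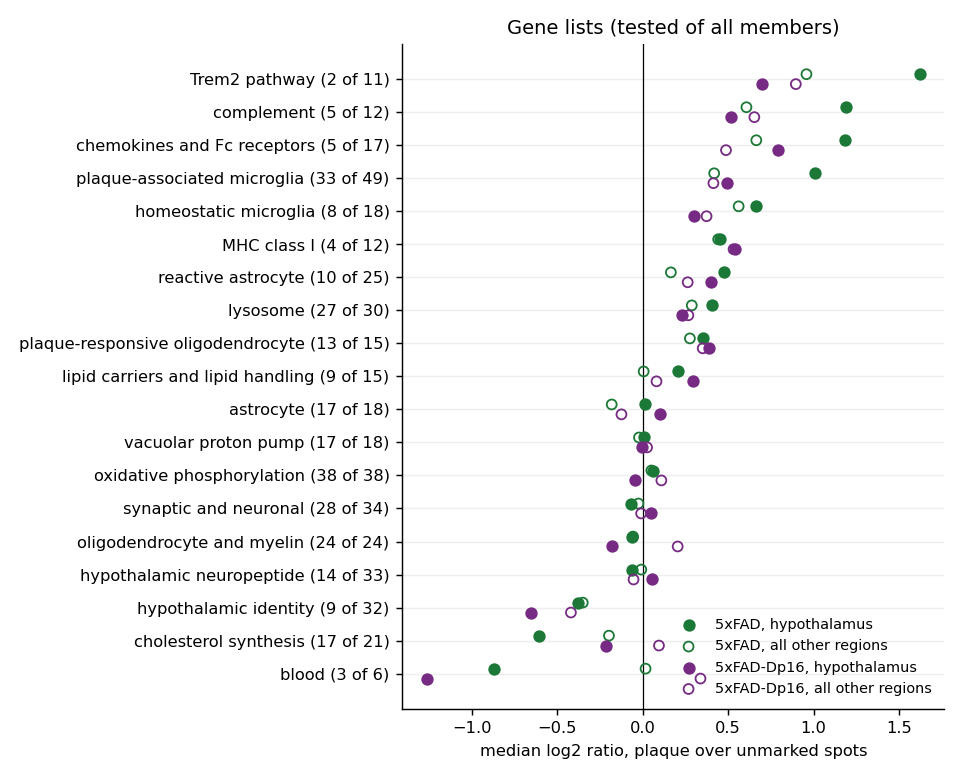
Median matched log2 ratio of plaque over unmarked spots (horizontal axis) for 19 gene lists (vertical axis), with filled marks for the hypothalamus and open marks for all other regions, green for 5xFAD and purple for 5xFAD-Dp16. The microglial, complement and chemokine lists lie right of 0, at 1.01 and 0.49, 1.19 and 0.51, and 1.18 and 0.79, and hypothalamic identity lies left of 0 at -0.38 and -0.66. Some lists share genes, so their medians are not independent of each other.

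In 5xFAD the microglial and astrocytic ratios were larger in the hypothalamus than in the pool of all other regions, where 205 and 274 plaque spots were matched in 5xFAD and 5xFAD-Dp16. Outside the hypothalamus the plaque-associated microglia list had medians of 0.42 and 0.41. The hypothalamus ranked first of the 7 regions with at least 10 matched plaque spots in 5xFAD and was number 5 of 10 in 5xFAD-Dp16. Cst7 gave 1.40 and 0.98 outside the hypothalamus, Trem2 1.00 and 0.98, Tyrobp 0.92 and 0.82, C1qa 0.62 and 0.65, Gfap 0.60 and 0.66 and Serpina3n 0.46 and 0.91. In 5xFAD each of these 6 ratios was therefore lower outside than inside the hypothalamus, while in 5xFAD-Dp16 Cst7, Trem2 and C1qa were higher outside, Tyrobp was equal to 2 decimals and Gfap and Serpina3n were lower. Outside, 40 of 6159 genes were at least 1.5-fold higher (0.649%) and 57 lower (0.925%) in 5xFAD, and 42 higher (0.682%) and 41 lower (0.666%) in 5xFAD-Dp16. In both sections 15 were higher (0.244%) and 6 lower (0.0974%), and 10 of the 67 genes higher in both hypothalami passed 1.5-fold there in both.

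Genes whose ratio was lower in the hypothalamus than in the pool of all other regions in both sections were Sst, Nnat, Gria1, Tspan2 and Ctxn1, a cortical membrane protein, which gave -0.97 and -0.94 here. For Sst this does not hold against each region: it gave -1.79 in the thalamus of 5xFAD, and -1.93 and -1.61 in the regions named Cortex RSP, CL and Cortex RSP, IL of 5xFAD-Dp16. On the other side stood Camk2g, a subunit of a calcium-dependent kinase, at 0.68 and 0.44 here against -0.03 and -0.27 outside. Cnpy3, a chaperone of Toll-like receptors, gave 0.47 and 0.40 and the tubulin-associated Lrrc49 0.94 and 0.47. Cdr1os gave 1.16 and 0.66 and Lhx1os 1.02 and 0.47, and both are uncertain, since their names mark them as opposite-strand transcripts and the counting of strands is not known. The differences between regions were not tested.

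The other genes among the 15 highest in both sections were Nt5dc2, a nucleotidase-domain protein (1.41 and 1.48), Cox6a2, a tissue-specific subunit of cytochrome c oxidase (1.62 and 1.16), 2700062C07Rik (1.27 and 1.06), Clstn2, a synaptic adhesion protein (0.99 and 1.16) and Necab3, a neuronal calcium-binding protein (1.13 and 0.93). The 10 lowest were Nsdhl, Hs3st4, Gfra1, Atp2b4, Ngb, Mpped1, Celf6, Cog4, Usp4 and Hbb-bs. Nsdhl, a cholesterol synthesis enzyme, gave -1.28 and -1.72 from 5 and 4 plaque UMIs, and the others were similarly sparse apart from haemoglobin. Hbb-bs, the adult beta globin, gave -0.97 and -1.04, but its value in 5xFAD rests on cluster 10: with clusters 4 and 6 alone it was 1.01. The blood list, with medians of -0.87 and -1.26 over 3 genes, is the same signal and was 1.60 in 5xFAD without cluster 10.

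Between the 2 sections, Cst7 had the most different ratio in favour of 5xFAD among well-counted genes. Others on that side were Ctxn3 (1.61 and -0.42), Anxa6 (0.44 and -1.14) and Blvra (0.66 and -0.91). Crip2 (-1.54 and 0.00), Gpx3, a secreted glutathione peroxidase (-1.25 and 0.15), Fdps, the initiation factor subunit Eif2s3x and the amino acid transporter Slc38a2 (-0.68 and 0.53 each) went the other way. These differences compare single sections that were matched on different clusters and were not tested.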

How the data were processed

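Visium libraries of 4 mouse brain sections, 1 per genotype, were analysed from the deposited table of UMI counts (19090 genes, 10549 spots), made with Space Ranger and Seurat on mm10 per the submitters' processing notes, with no versions given. The authors' deposited spot table supplied regions, 22 clusters, plaque and neighbour marks and the percent of mitochondrial UMIs; how regions and marks were made is not known. Sections held 2.60499e+07 to 3.64614e+07 UMIs, and the median hypothalamic spot 10876 to 13559.5.

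Plaque and unmarked spots were compared by a Mantel-Haenszel ratio of UMIs over clusters with at least 3 spots of each kind, with an exact conditional 95% interval. CPM levels are averages over clusters with the same weights. Genes needed an expected count of 10 in the plaque spots of both sections, and a ratio of 1.5 counted as called. Where a group had no UMI a floor of 3 counts was used. The interval of a list's median comes from the order of its members and needs 6 of them. Shares of spots were thinned to 4470 UMIs with exact Clopper-Pearson intervals. Spots are not replicates, so no p-value was computed, and no doublet caller was used. The procedure was tested on simulated data.

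Members and the 37 gene lists were chosen with earlier results of these data known. Genes named are the 15 highest and 10 lowest in both sections, per list the 3 most abundant and the highest and lowest, the 5 most different each way between sections and between regions, and a fixed list. Some genes that this rule names are not reported here. The alternatives concerned matching, weights, clusters, scaling, depth, thresholds and neighbours. Python 3.11.15, numpy 2.4.6 and scipy 1.17.1 were used.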

Additional observations from a re-analysis of the deposited data

Results flagged for a closer look

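Blvra, biliverdin reductase A, and Tac2, neurokinin B, went opposite ways at plaques in the 2 sections, each past 1.5-fold with an interval that leaves out 0, and the difference between the sections was not tested. Blvra had a log2 ratio of plaque over unmarked spots of 0.66 in 5xFAD and -0.91 in 5xFAD-Dp16. It was at 66.6 and 42.2 CPM in 5xFAD and at 35.1 and 65.7 in 5xFAD-Dp16, with a UMI in 26 of 47 plaque and 41 of 120 unmarked spots of the former and in 18 of 51 and 89 of 243 of the latter. Tac2 had log2 ratios of -6.44 and 3.26. It had 3 UMIs in plaque spots of 5xFAD against 418 in unmarked spots, and in 5xFAD-Dp16 a single spot held 28 of its 50 plaque UMIs and a single spot 24 of its 39 unmarked UMIs.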

How the results depend on the processing

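The counts of 67 genes higher and 88 lower in both sections depended on the settings. Without matching there were 114 and 246, with neighbours counted as unmarked 42 higher, with an expected count of 5 there were 136 and 225, with 30 there were 10 and 11, with a fold of 2 there were 8 and 7, and without cluster 6, which holds the most plaque spots in both sections, 25 and 57. The microglial list median of 1.01 and 0.49 became 1.58 and 1.12 without matching, 0.32 in 5xFAD with neighbours as unmarked and 1.28 in 5xFAD without cluster 6, and stayed above 0 in each alternative run. Signs turned without matching for Penk in 5xFAD (-0.014) and, in 5xFAD-Dp16, for Cartpt (-2.15), Maob (-0.028), Sox10 (0.29) and Tspan2 (0.17). With clusters of at least 10 spots of each kind, and for the blood genes also with clusters 4 and 6 alone, signs turned for the blood list (1.60), Hba-a1 (2.18), Hba-a2 (1.60) and Hbb-bs (1.01) in 5xFAD, since both settings drop cluster 10; the former also gave -0.62 for Cartpt and -1.62 for Rprm in 5xFAD-Dp16. Without cluster 6 in 5xFAD-Dp16 signs turned for the immediate early list (0.10), Cdr1os (-0.10), Chil1 (-0.21), Clstn2 (-0.55), Dlk1 (-0.41), Dusp1 (0.33), Necab3 (-0.24) and Sox10 (0.20). Unless stated, the cause was not tested. Over all alternatives, 3515 values of named genes moved by less than their counting interval, 299 by more, and 20 turned sign. Clusters 4 and 6 alone, and leaving out plaque spots without a neighbour mark, were chosen after seeing the data. Matching on the second region label was not run, since it does not divide the hypothalamus, and leaving out clusters 12 and 13 removed no matched spot. No paired analysis was possible because there is 1 section per genotype. Depth limits genes of few UMIs: the lowest genes rest on 4 plaque UMIs or little more.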

Other observations

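Lists of other cell types and programmes that the hypothalamic spots could hold had the following median log2 ratios of plaque over unmarked spots, in 5xFAD and then in 5xFAD-Dp16. Oligodendrocyte precursor genes gave 0.08 and 0.10 over 8 genes, and endothelial and vessel genes -0.17 and -0.06 over 7. Genes of the ependyma and tanycytes gave 0.15 and -0.40 over 5, a list whose lowest member, Nnat, is also a hypothalamic identity gene. Axonal and stress response genes gave -0.16 and -0.01 over 11, and excitatory neuron genes -0.26 and -0.04 over 3. Immediate early genes, which follow neuronal activity, gave -0.38 and -0.64 over 3. The monoaminergic, meningeal, choroid plexus, pituitary and lymphocyte lists had at most 2 tested genes each. The choroid plexus list summed to 414 CPM in plaque and 568 in unmarked spots of 5xFAD and to 324 and 357 in 5xFAD-Dp16, and the lymphocyte list to 26.3 and 43.3 and to 57.3 and 48.6.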
